A study of Homo sapiens with 3 samples.

Results

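The genes that encode the Polycomb repressive complexes were followed in NCI-H660 cells treated with JG231. They were taken as the rows of the gene table named EZH1, EZH2, EED, SUZ12, JARID2, PHF19, BMI1, RING1, RNF2 and CBX2, and all 10 were found among the 58735 genes of the table. NCI-H660 is a human line of neuroendocrine prostate cancer, as the series' design text calls it, although its sample records name it a prostatic adenocarcinoma. JG231 is an allosteric inhibitor of the chaperone HSP70, and the study asked how HSP70 inhibition acts on the oncoprotein N-Myc. Stranded mRNA libraries were sequenced from parental cells given DMSO, the vehicle, or JG231 at 2.5 or 5 μM for 24 h. Each condition had 1 library and all 3 came from the same cell line, so no difference below has a replicate check and none was tested. Both JG231 libraries were compared with the same DMSO library, so their changes are not independent of each other.

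Polycomb proteins keep developmental genes silent. Polycomb repressive complex 2 (PRC2) places methyl groups on lysine 27 of histone H3, and Polycomb repressive complex 1 (PRC1) binds that mark through its CBX subunits and attaches ubiquitin to histone H2A through its RING ligases. In neuroendocrine prostate cancer, EZH2, the main methyltransferase of PRC2, is known for high expression and has been studied as a drug target.

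The values are FPKM, fragments per kilobase of exon scaled to the depth of the library, as the authors deposited them. From the steps between low FPKM values the depth was recovered: 16087620 fragments with DMSO, 20373157 with the lower dose and 24061353 with the higher. Changes are log2((FPKM with JG231 + 0.1)/(FPKM with DMSO + 0.1)), a gene was tested where its FPKM was over 1 in either library, and it was called higher or lower past 0.25. Intervals in brackets are 95% intervals for counting error only, since PCR copies of 1 molecule are not told apart, and they hold no error of the cultures. As a second yardstick, the robust SD of the log2 difference between the 2 JG231 libraries over the 500 genes nearest in FPKM is called the library spread here. It ranged from 0.23 to 0.48 for the 10 genes and includes the effect of the dose. Of the 9 neuroendocrine markers, 7 had an FPKM over 1 with DMSO and 8 at each dose, and their summed FPKM was 494, 213 and 185 with DMSO, 2.5 μM and 5 μM. NEUROD1 alone of these markers was listed at 0 in every library. The 6 luminal prostate markers summed to between 0.116 and 0.537 FPKM, and the 9 stromal, immune and endothelial markers to between 1.52 and 2.49. In bulk RNA, fewer cells of a type and less RNA per cell cannot be told apart.

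With DMSO, EZH2 had the highest FPKM of the 10 genes, at 28.6, and JARID2 the lowest, at 4.02. Between them stood CBX2 at 26.1, RING1 at 20.5, SUZ12 at 15.5, PHF19 at 13.5, BMI1 at 11.7, RNF2 at 8.55, EED at 6.26 and EZH1 at 4.87. No 2 neighbours in that order had overlapping counting intervals. Among expressed protein-coding genes (FPKM averaging 1 or more), EZH2 stood at percentile 88.6 with DMSO and JARID2 at percentile 29.4. In FPKM, RING1 was the highest of the 10 in both JG231 libraries, at 44.8 and 51.1 FPKM, and JARID2 was again the lowest. By the same measure, CBX2 moved from the second place with DMSO to the seventh at both doses, and RNF2 moved from the seventh place to the third. With JG231 some neighbours could not be ordered, since counting intervals overlapped for BMI1 and PHF19 and for PHF19 and CBX2 at 2.5 μM, and for BMI1 and PHF19, PHF19 and SUZ12, and EZH1 and JARID2 at 5 μM. FPKM here divides by all annotated exon bases of a gene, so a gene with many alternative exons reads low. Divided by the canonical transcript length in its place, the DMSO levels ran from 4.03 for JARID2 to at least 48.6 for EZH2, EED stood at 21.0 in place of 6.26, and EZH2 remained the highest. On that scale EZH2 was also the highest at 2.5 μM, at no less than 61.2 against 46.7 for RING1. At 5 μM it stood at no less than 52.4 against 53.4 for RING1, so which of them was higher cannot be said, and RNF2 was the fifth.

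**Figure D1:**
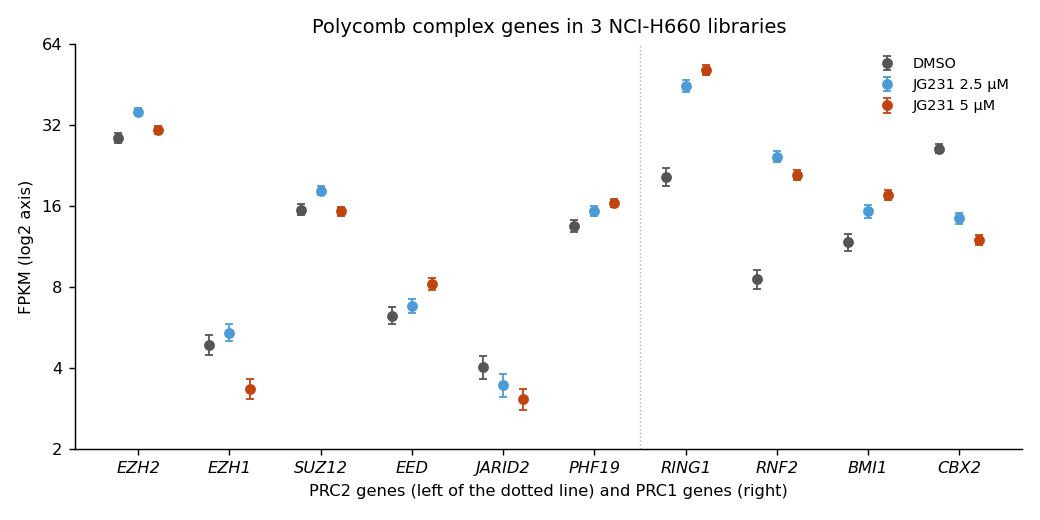
FPKM of each gene (log2 axis) in the DMSO, 2.5 μM and 5 μM libraries, 1 point per library, with bars for the 95% Poisson counting interval. RING1 and RNF2 lie higher in both JG231 libraries than with DMSO and CBX2 lies lower, while the PRC2 genes stay closer to their DMSO level.

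Among the PRC1 genes, the transcripts of both RING ligases were more than doubled in FPKM at each dose. RING1 and RNF2 (RING1B) are the alternative E3 ligases of PRC1 that ubiquitinate histone H2A. RING1 lies at chr6:33208500-33212722 on the plus strand (GRCh38, GENCODE release 44), and its FPKM was 20.5 with DMSO, 44.8 at 2.5 μM and 51.1 at 5 μM, from 600, 1658 and 2237 fragments. The log2 change was 1.12 at 2.5 μM (0.99 to 1.26) and 1.31 at 5 μM (1.19 to 1.45). RNF2 lies at chr1:185045526-185102603 on the plus strand, and its FPKM was 8.55 with DMSO, 24.4 at 2.5 μM and 20.8 at 5 μM, from 560, 2024 and 2035 fragments. Its log2 change was 1.50 at 2.5 μM (1.38 to 1.65) and 1.27 at 5 μM (1.15 to 1.42). Both JG231 libraries lay above DMSO for both genes, by more than their library spreads of 0.23 and 0.29. The higher dose had the higher level for RING1 and the lower level for RNF2. RING1 therefore made up 70.6% of the summed FPKM of the pair with DMSO, 64.7% at 2.5 μM and 71.1% at 5 μM. That share does not depend on how the libraries are scaled, but it is not corrected for transcript length. Removing the trend with transcript length described below gave changes of 0.87 for RING1 and 1.46 for RNF2 at 2.5 μM. At 5 μM it gave 0.96 and 1.26. RING1's change stood at percentile 90.6 of all genes tested at 5 μM and RNF2's at percentile 90.0, so changes of this size were not rare in these libraries.

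BMI1 (PCGF4), the PCGF subunit that stimulates the ligase in canonical PRC1, lies at chr10:22321099-22331484 on the plus strand. Its FPKM was 11.7 with DMSO, 15.3 at 2.5 μM and 17.6 at 5 μM, from 809, 1331 and 1815 fragments. On the log2 scale, BMI1 differed from DMSO by 0.37 at 2.5 μM (0.25 to 0.51) and 0.58 at 5 μM (0.46 to 0.71), against a library spread of 0.28. BMI1 was thus highest at the higher dose, as RING1 was. The read-through gene COMMD3-BMI1 shares 1000 exon bases with BMI1 and was listed at 0 in all 3 libraries, and how shared reads were assigned is not stated. COMMD3, the gene upstream, had an FPKM of 6.62 with DMSO, 8.85 at 2.5 μM and 7.53 at 5 μM.

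The upstream sequences of these 3 genes are shown because, in FPKM as deposited, they were the members higher at both doses by more than their library spread. All 3 encode PRC1 subunits, with RING1 and RNF2 as alternatives to each other. The stretches come from RefSeq's 250 bases before the annotated start (GRCh38.p14, plus strand), cut before the GENCODE gene start, at chr6:33208250-33208499 for RING1, chr1:185045308-185045525 for RNF2 and chr10:22320849-22321098 for BMI1. Capitals mark matches, on either strand, to the E-box CACGTG that MYC proteins bind, the GC box GGGCGG, the CCAAT box CCAAT, the CRE-type TGACGT and the E2F-type TTTCCCGC.
RING1: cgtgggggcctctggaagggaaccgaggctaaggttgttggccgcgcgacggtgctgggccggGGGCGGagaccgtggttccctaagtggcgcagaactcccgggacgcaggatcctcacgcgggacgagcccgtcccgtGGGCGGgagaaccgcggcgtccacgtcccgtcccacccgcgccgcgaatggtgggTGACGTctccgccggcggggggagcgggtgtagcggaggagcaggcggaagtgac
RNF2: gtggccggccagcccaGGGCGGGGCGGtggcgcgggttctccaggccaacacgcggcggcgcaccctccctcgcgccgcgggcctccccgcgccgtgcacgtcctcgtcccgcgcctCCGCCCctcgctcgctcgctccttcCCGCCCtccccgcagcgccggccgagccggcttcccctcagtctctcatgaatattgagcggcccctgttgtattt
BMI1: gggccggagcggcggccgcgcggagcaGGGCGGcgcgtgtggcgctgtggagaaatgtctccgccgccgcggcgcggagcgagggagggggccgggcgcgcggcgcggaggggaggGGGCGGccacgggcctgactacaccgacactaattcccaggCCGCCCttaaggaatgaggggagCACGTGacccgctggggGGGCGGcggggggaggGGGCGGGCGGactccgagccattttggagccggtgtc
The only E-box of the 3 stretches was in BMI1, and the only CRE-type match was in RING1. GC boxes were found 2 times in RING1, 4 times in RNF2 and 6 times in BMI1, and 1 pair of them overlapped in RNF2 and 1 pair in BMI1. The RING1 stretch also overlaps the exon of an antisense lncRNA gene. RefSeq windows of 250 bases were matched for 9 of the 10 genes, some with more than 1 start, 13 windows in all, and CBX2 was not matched. The E-box was found in 1 of the 13 windows and in 6.34% of all 35116 windows, the CRE-type in 4 and in 7.1%, the E2F-type in 2 (PHF19 and SUZ12) and in 1.39%, the CCAAT box in 6 and in 32%, and the GC box in 12 and in 42.6%. These letters are a description of the windows and say nothing of binding. The GC content of the 3 stretches, 72.8% for RING1, 75.2% for RNF2 and 76.8% for BMI1, lay above the median of 58% over all windows.

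CBX2 was the member with the largest decrease. It is a chromodomain subunit through which canonical PRC1 binds methylated histone H3 and compacts chromatin, and it lies at chr17:79778148-79787983 on the plus strand. Its FPKM was 26.1 with DMSO, 14.4 at 2.5 μM and 11.9 at 5 μM, from 2392, 1663 and 1634 fragments. On the log2 scale, CBX2 differed from DMSO by -0.86 at 2.5 μM (-0.96 to -0.77) and -1.12 at 5 μM (-1.22 to -1.04), against a library spread of 0.28. Both treated libraries lay below DMSO, and the 5 μM library was the lowest. CBX2's change stood at percentile 22.2 of all genes tested at 5 μM.

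The CBX subunits of canonical PRC1 are alternatives to each other, and their genes did not move together. CBX8 is a neighbour of CBX2 on chromosome 17, with a gap of 4.15 kb between them. CBX8 had an FPKM of 8.39 with DMSO, 20.5 at 2.5 μM and 21.2 at 5 μM, with log2 changes of 1.28 and 1.33. This next-door gene was thus higher with JG231 while CBX2 was lower. CBX6 had an FPKM of 10.5, 8.72 and 6.49, with log2 changes of -0.26 and -0.68. CBX7 had an FPKM of 1.79, 1.64 and 1.28, and was named after its values were seen, to set it beside the others. As a share of the summed FPKM of CBX2, CBX6, CBX7 and CBX8, CBX2 held 55.9% with DMSO, 31.8% at 2.5 μM and 29.2% at 5 μM, and CBX8 held 17.9%, 45.3% and 51.8%. The ratio of CBX8 to CBX2 in FPKM was 0.321 with DMSO (0.292 to 0.352), 1.42 at 2.5 μM (1.33 to 1.52) and 1.78 at 5 μM (1.66 to 1.90). CBX8 was therefore the lower of the pair with DMSO and the higher in both JG231 libraries. The ratio of CBX2 to RING1 was 1.27, 0.321 and 0.234 in the same order of libraries.

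**Figure D2:**
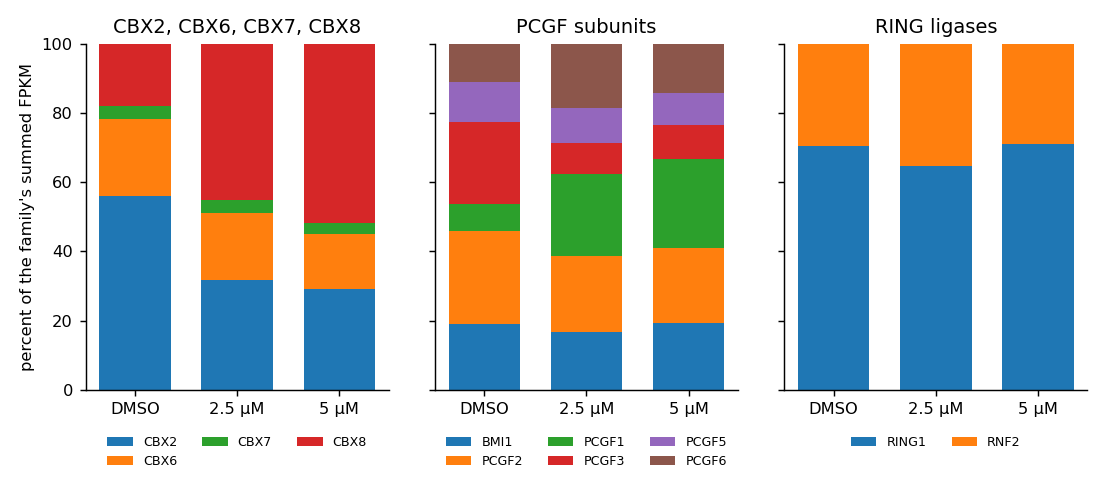
Share of each gene in the summed FPKM (percent, axis from 0) of 4 CBX genes, the PCGF subunits and the RING ligases, 1 bar per library. CBX2 holds 55.9% of the CBX genes shown with DMSO and 31.8% and 29.2% with JG231, BMI1 holds between 16.8% and 19.3% of the PCGF genes, and RING1 between 64.7% and 71.1% of the RING pair.

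BMI1's share of its own slot moved less. Of the summed FPKM of the 6 PCGF genes, BMI1 held 19.1% with DMSO, 16.8% at 2.5 μM and 19.3% at 5 μM, while the sum was 61.3, 90.7 and 91.2 FPKM. PCGF1, the PCGF subunit of the variant complex with BCOR and KDM2B, held 7.79%, 23.8% and 25.7%, and PCGF3 held 23.5%, 8.98% and 9.74%. The FPKM ratio of BMI1 to PCGF2 (MEL18), the other PCGF subunit of canonical PRC1, was 0.712 with DMSO (0.647 to 0.784), 0.768 at 2.5 μM (0.712 to 0.829) and 0.890 at 5 μM (0.832 to 0.952).

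The 6 PRC2 genes among the 10 had log2 changes between -0.54 and 0.38 at both doses. EZH2 lies at chr7:148807257-148884321 on the minus strand, and its FPKM was 28.6 with DMSO, 35.9 at 2.5 μM and 30.7 at 5 μM, from at least 2077, 3307 and 3344 fragments. These counts are minimums, since 2 exon lengths, 1 a multiple of the other, both give whole fragments. The log2 change was 0.33 at 2.5 μM (0.25 to 0.41) and 0.11 at 5 μM (0.03 to 0.19), against a library spread of 0.27, so that only the lower dose passed 0.25. EZH1, the second H3K27 methyltransferase, which is typical of cells that divide little, lies at chr17:42700275-42745049 on the minus strand. Its FPKM was 4.87 with DMSO, 5.40 at 2.5 μM and 3.33 at 5 μM, from 548, 769 and 560 fragments. On the log2 scale, EZH1 differed from DMSO by 0.15 at 2.5 μM (-0.01 to 0.31) and -0.54 at 5 μM (-0.72 to -0.38), against a library spread of 0.44. The 5 μM library was the lowest of the 3 for EZH1 and lay between the others for EZH2. The FPKM ratio of EZH2 to EZH1 was 5.86 with DMSO (5.33 to 6.45), 6.65 at 2.5 μM (6.14 to 7.20) and 9.23 at 5 μM (8.44 to 10.1), and its counting intervals with DMSO and at 5 μM did not overlap. This ratio is not corrected for transcript length. With the length trend described below removed, the changes at 5 μM were -0.05 for EZH2 and -0.37 for EZH1.

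EED and SUZ12 are core subunits without which EZH2 has no activity. EED reads the methyl mark and SUZ12 holds the complex together. PRC2 genes outside the 10 are counted by list below. EED lies at chr11:86201212-86278813 on the plus strand, and its FPKM was 6.26 with DMSO, 6.79 at 2.5 μM and 8.20 at 5 μM, from 707, 970 and 1385 fragments. The log2 change was 0.11 at 2.5 μM (-0.03 to 0.26) and 0.38 at 5 μM (0.26 to 0.52), against a library spread of 0.35. SUZ12 lies at chr17:31937007-32001038 on the plus strand, and its FPKM was 15.5 with DMSO, 18.2 at 2.5 μM and 15.3 at 5 μM, from 1634, 2426 and 2411 fragments. On the log2 scale, SUZ12 differed from DMSO by 0.23 at 2.5 μM (0.14 to 0.32) and -0.02 at 5 μM (-0.11 to 0.07), against a library spread of 0.26. SUZ12 and EZH2 were both highest at 2.5 μM, and EED was highest at 5 μM. The ratio of SUZ12 to EZH2 was 0.543 with DMSO (0.509 to 0.580), 0.507 at 2.5 μM (0.481 to 0.534) and 0.498 at 5 μM (0.472 to 0.525), so these counting intervals overlapped in all pairs of libraries. The ratio of EED to EZH2 was 0.219 with DMSO (0.201 to 0.239), 0.189 at 2.5 μM (0.176 to 0.203) and 0.267 at 5 μM (0.251 to 0.284), and the interval at 5 μM overlapped neither of the others. With the length trend removed, the changes at 5 μM were 0.10 for EED and -0.05 for EZH2. EED shares 221 exon bases with a lncRNA gene on the opposite strand that was not used here. The SUZ12 pseudogene SUZ12P1, with which SUZ12 could share reads, had an FPKM of 7.34, 7.21 and 8.02.

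JARID2 and PHF19 are accessory subunits that place PRC2 on chromatin, JARID2 in the PRC2.2 form and PHF19 (PCL3) in the PRC2.1 form. JARID2 lies at chr6:15246069-15522042 on the plus strand, and its FPKM was 4.02 with DMSO, 3.44 at 2.5 μM and 3.05 at 5 μM, from 389, 422 and 442 fragments. The log2 change was -0.22 at 2.5 μM (-0.43 to -0.02) and -0.39 at 5 μM (-0.60 to -0.20), both within its library spread of 0.48. PHF19 lies at chr9:120855651-120894896 on the minus strand, and its FPKM was 13.5 with DMSO, 15.3 at 2.5 μM and 16.4 at 5 μM, from 1458, 2100 and 2655 fragments. On the log2 scale, PHF19 differed from DMSO by 0.18 at 2.5 μM (0.09 to 0.28) and 0.28 at 5 μM (0.19 to 0.38), against a library spread of 0.27. The FPKM ratio of PHF19 to MTF2 (PCL2), another subunit of the same position, was 1.05 with DMSO (0.971 to 1.13), 1.08 at 2.5 μM (1.01 to 1.15) and 1.43 at 5 μM (1.34 to 1.52). JARID2 was lowest and PHF19 highest at 5 μM. Of the transcripts near JARID2, JARID2-AS1 had an FPKM of 0.820, 0 and 0, and JARID2-DT of 1.67, 1.41 and 0. The pseudogenes EZH2P1, EEDP1 and BMI1P1 were listed at 0 throughout, and RNF2P1 at 0, 0 and 0.411.

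In all, 5 of the 10 genes were called higher at 5 μM (RING1, RNF2, BMI1, EED and PHF19) and 3 lower (CBX2, EZH1 and JARID2). Over all 15765 genes tested at 5 μM, 36.5% were called higher and 45.1% lower. At 2.5 μM, 4 genes were called higher (RNF2, RING1, BMI1 and EZH2) and 1 lower (CBX2), against 36.4% and 43.4% of 15746 genes. With only 10 genes and 1 library per condition, nothing is read from these counts about the group. Past 1 on the log2 scale stood RING1 and RNF2, higher at both doses, and CBX2, lower at 5 μM, against 14.7% of genes higher and 24.3% lower at 5 μM and 12.9% and 21.7% at 2.5 μM. The median change of the 10 genes was 0.19 at 5 μM and 0.21 at 2.5 μM, that of all genes tested -0.11 and -0.08, and that of the expressed protein-coding genes 0.02 and 0.05. Between the doses the median of the 10 genes was -0.20, against -0.02 both for all genes tested and for the expressed protein-coding genes. Between the doses, 1 gene was called higher at 5 μM than at 2.5 μM (EED, 0.27) and 2 lower (EZH1, -0.68, and CBX2, -0.26), against 26.8% and 30.1% of 14197 genes. EZH1 was the only one of the 10 whose difference between doses exceeded its library spread.

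**Figure D3:**
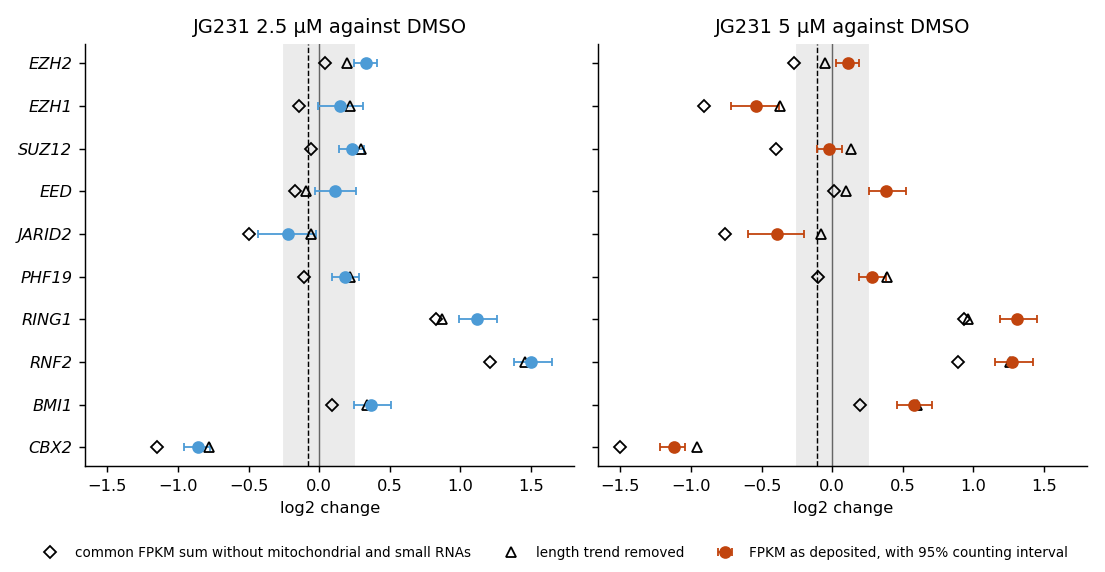
The log2 change of each gene at 2.5 and 5 μM against the shared DMSO library (filled, with 95% counting intervals), after scaling to a common FPKM sum without mitochondrial and small RNA genes (diamonds) and after removal of the length trend (triangles). The grey band is ±0.25 and the dashed line the median of all genes tested; RING1, RNF2 and CBX2 keep their side of the band throughout, with diamonds at 0.93, 0.89 and -1.50 at 5 μM.

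The direction of the smaller changes depended on the scaling of the libraries. Mitochondrial genes made up 39.8% of the summed FPKM with DMSO, 24.1% at 2.5 μM and 28.8% at 5 μM. Scaling each library to the same FPKM sum without mitochondrial and small RNA genes shifted every change by -0.29 at 2.5 μM and -0.38 at 5 μM. With that scaling the change at 5 μM was 0.93 for RING1, 0.89 for RNF2, 0.20 for BMI1 and -1.50 for CBX2. EZH2 then stood at 0.04 and -0.27 at 2.5 and 5 μM, SUZ12 at -0.06 and -0.40, EED at -0.17 and 0.01, and PHF19 at -0.11 and -0.10. The higher calls of RING1 and RNF2 and the lower call of CBX2 held at both doses, as did the lower calls of EZH1 (-0.91) and JARID2 (-0.76) at 5 μM. The higher calls of BMI1, EZH2, EED and PHF19 did not hold, and EZH2 and SUZ12 passed the threshold on the lower side at 5 μM. JARID2 passed it on the lower side at 2.5 μM as well, at -0.50.

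Transcript length moved with the changes as well. Among protein-coding genes, the trend of change at 5 μM on canonical transcript length ran from 0.66 at 732 bp to -0.57 at 10908 bp. RING1 has a canonical transcript of 1741 bp, EED of 2088 bp, EZH2 of 2654 bp, RNF2 of 3407 bp, BMI1 of 3540 bp, PHF19 of 4149 bp, SUZ12 of 4495 bp, CBX2 of 4628 bp, EZH1 of 4633 bp and JARID2 of 6003 bp. With the trend taken off, the change at 5 μM was 1.26 for RNF2, 0.96 for RING1, 0.60 for BMI1, 0.39 for PHF19, -0.37 for EZH1 and -0.96 for CBX2. JARID2 stood at -0.08 and EED at 0.10, so both lost their call. At 2.5 μM EZH2 lost its call, at 0.20, and SUZ12 came to be called higher, at 0.30. The part of transcript length in these changes was not tested.

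**Figure D4:**
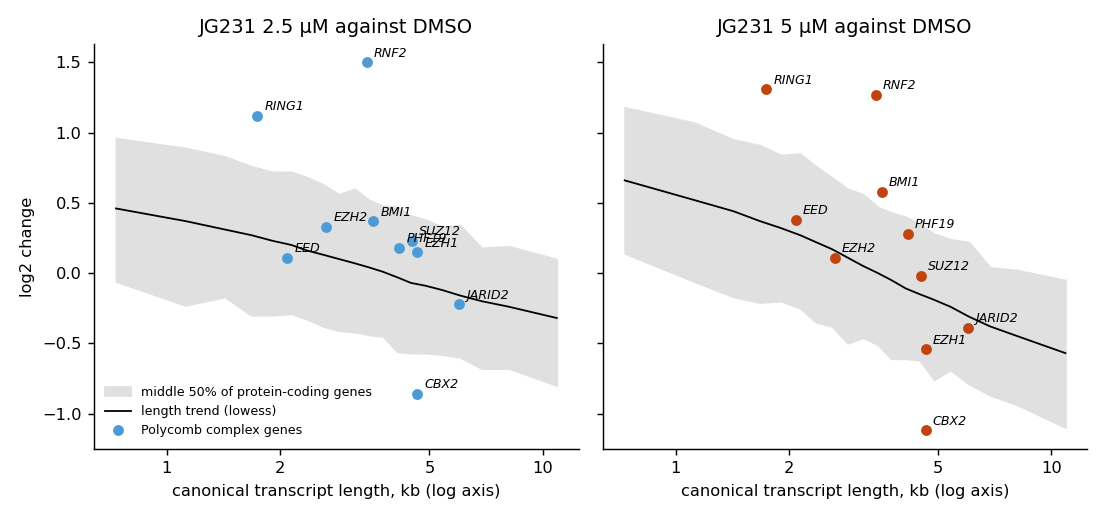
Change at 2.5 and 5 μM (log2) against canonical transcript length (kb, log axis) for the 10 Polycomb genes, over the length trend (line) and the middle 50% (grey) of the expressed protein-coding genes. At 5 μM JARID2 (-0.39) and EED (0.38) lie close to the line, while RING1, RNF2, BMI1 and CBX2 lie outside the grey band.

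Other genes of the Polycomb system were described by list, and each count is to be read against the share of all genes tested, 36.5% higher and 45.1% lower at 5 μM and 36.4% and 43.4% at 2.5 μM. With lists this short, no list is called apart from that background. Of 8 other PRC2 genes, 7 were tested at 5 μM, of which 2 were higher and 4 lower, with a median change of -0.32, and the counts were the same at 2.5 μM. PHF1 (PCL1), an accessory subunit of PRC2.1 like PHF19, had an FPKM of 17.3, 30.9 and 31.2 with DMSO, 2.5 μM and 5 μM. AEBP2, the partner of JARID2 in PRC2.2, had an FPKM of 3.60, 8.85 and 5.91. EPOP, which links PRC2 to elongin, had an FPKM of 6.13, 2.01 and 2.17. Of 10 other canonical PRC1 genes, 3 were higher and 2 lower at 5 μM, 7 were higher and 1 lower at 2.5 μM, and the medians were 0.01 and 0.28. After CBX8, PHC2, a polyhomeotic scaffold of PRC1, had the next largest change, at 26.6, 48.0 and 45.3 FPKM.

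Of the 17 variant PRC1 genes, 5 were higher and 6 lower at 5 μM and 8 were higher and 7 lower at 2.5 μM, with medians of -0.12 and -0.03. PCGF1 had an FPKM of 4.78, 21.6 and 23.5, with log2 changes of 2.15 and 2.27. YAF2, which binds the RING ligases in place of a CBX protein, had an FPKM of 1.22, 4.36 and 5.08, with log2 changes of 1.76 and 1.98. BCORL1, a partner of PCGF1, had an FPKM of 4.84, 1.96 and 1.62 and so moved the other way. With the length trend removed, the changes at 5 μM were 1.68 for PCGF1, with its short transcript, and -1.11 for BCORL1, with its long transcript. None of the 10 tested genes for enzymes that oppose Polycomb and their cofactors was higher at 5 μM and 4 were lower. At 2.5 μM 3 were higher and 3 lower, and the medians were -0.06 at 5 μM and -0.09 at 2.5 μM. The H3K4 methyltransferase KMT2D had an FPKM of 4.60, 1.43 and 1.09, KMT2A of 3.56, 2.73 and 2.03, and ASXL2, a cofactor of the H2A deubiquitinase BAP1, of 3.37, 2.51 and 1.98. These 3 have long transcripts, and with the length trend removed their changes at 5 μM were -1.17, -0.06 and -0.11.

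HOX genes and other developmental regulators are known to be silenced by Polycomb. Of 39 HOX genes, 23 were tested at 5 μM, 10 were higher and 10 lower against 36.5% and 45.1% of all genes, and the median was -0.18, also with HOXD4, listed at 0 with DMSO, set at its lower bound. For 6 of the 23, FPKM was over 1 in only 1 of the libraries compared, so the filter itself favoured a difference in them. At 2.5 μM, 21 were tested, 9 were higher and 9 lower, and the median was -0.21. HOXD8 had an FPKM of 3.24, 9.52 and 14.4, HOXD1 of 0.598, 3.23 and 1.85, and HOXD10, in the same cluster, of 3.53, 0.948 and 0.633. HOXD1 and HOXD10 are among the 6 genes over 1 in only 1 of the libraries compared. Of 20 other targets, 8 were tested at 5 μM, of which 4 were higher and 2 lower, with a median of 0.32, and at 2.5 μM 4 were higher and 1 lower, with a median of 0.31. CDKN2A, the INK4A/ARF gene that BMI1 is known to repress, had an FPKM of 81.6, 212 and 206, higher in both JG231 libraries. FOXC1, a developmental transcription factor, had an FPKM of 4.12, 7.80 and 8.25, and DAB2IP, a Ras GTPase-activating protein that EZH2 is known to repress in prostate cancer, of 13.6, 7.18 and 6.81. Of the 4 MYC family genes, MYCN, which encodes N-Myc, had an FPKM of 0.693, 0.226 and 0.559 from only 29, 12 and 35 fragments, MYC of 4.62, 49.9 and 45.5, MYCL of 20.9, 6.11 and 6.33 and MAX, their partner, of 10.5, 21.3 and 19.7.

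EZH2 is a known target of E2F factors, and 23 E2F-driven replication and cell cycle genes were counted for that reason, with 9 higher and 7 lower at 5 μM and 9 higher and 9 lower at 2.5 μM, and medians of -0.04 and -0.16. CDT1, a replication licensing factor, had an FPKM of 22.1, 62.4 and 72.3, cyclin E1 (CCNE1) of 9.77, 2.14 and 1.01, and cyclin B1 (CCNB1) of 48.9, 35.3 and 29.3. The 5 genes whose changes at both doses were nearest to those of EZH2 were UBL7, IGHMBP2, MPHOSPH10, SIN3B and TTLL7, at distances of 0.0113 to 0.0206 on the log2 scale over the 3 libraries. Of the 7051 protein-coding genes compared, those with an FPKM averaging 5 or more, 123 lay within 0.1 of EZH2.

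**Figure D5:**
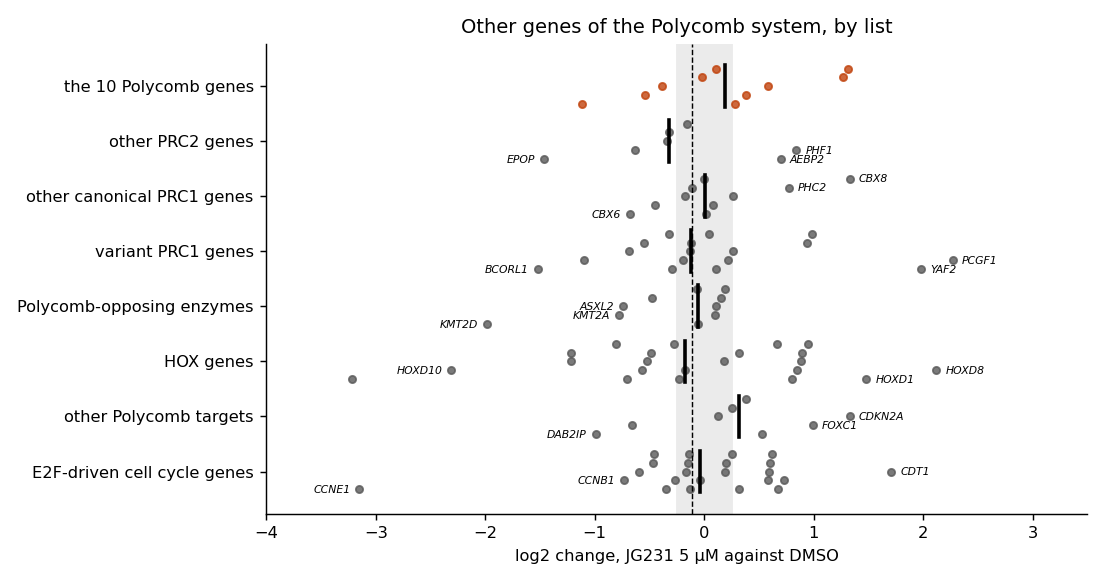
The log2 change at 5 μM against DMSO of the tested genes of each list, 1 point per gene, with the list's median (bar), the ±0.25 band (grey) and the median of all genes tested (dashed); HOXD4, listed at 0 with DMSO, is not drawn. Each list has genes on both sides of 0. PCGF1 and YAF2 lie further to the right than RING1 and RNF2, while CBX8 (1.33) lies beside RING1 (1.31).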

How the data were processed

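NCI-H660 cells treated with DMSO or JG231 at 2.5 or 5 μM for 24 h were analysed, with 1 library per condition. The deposited table holds FPKM per Ensembl gene. The study's methods name HISAT and StringTie, and the submitters' processing notes list HISAT2, featureCounts and GRCh38 (hg38); versions are not given in the sources used here, nor whether counting used the strand. In genes with 1 transcript, the product of FPKM and exon length gave whole fragments (within 0.02) for 82.6% to 87.0% of low genes, which gave the depth. With the exon length of GENCODE release 44 it did so for only 38.9% to 40.2% of genes with more transcripts, so each of the 10 genes' exon length was taken as the smallest, from 0.9 of the canonical transcript up, that made all 3 libraries whole within 0.005. Genes were matched to GENCODE release 44 for 58207 of 58735 rows. Changes used a pseudocount of 0.1, an FPKM over 1 in either library and a threshold of 0.25. Counting intervals are exact conditional binomial or Poisson intervals at 95%. Length trends are lowess curves with fraction 0.3. Python 3.11.15 with pandas 2.3.3, scipy 1.17.1 and statsmodels 0.14.6 was used, and the scripts were tested on simulated data. All 10 Polycomb genes were named, and from other lists up to 3 genes with the largest change at 5 μM, a mean FPKM of at least 1 and the same sign at both doses, besides MYCN, near copies and overlapping genes, and markers by range. CBX7, PCGF2, PCGF3, MTF2, HOXD4 and NEUROD1 were named beside these after their values were seen. For EZH2, likeness was the Euclidean distance between pairs of changes. The members and lists were chosen with earlier results of these data known, and some genes are not reported here. Alternatives changed the pseudocount, filter, threshold, scaling, length correction, the read-through gene and genes at 0. Those for the read-through gene and for genes at 0 could move nothing among the 10 genes. COMMD3-BMI1 was listed at 0 in all 3 libraries, and none of the 10 genes was listed at 0.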

Additional observations from a re-analysis of the deposited data

Results flagged for a closer look

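For EZH1 and SUZ12 the log2 changes against the same DMSO library had opposite signs at the 2 doses, although for each gene the counting interval of 1 of them held 0. EZH1 stood at 0.15 at 2.5 μM (-0.01 to 0.31) and at -0.54 at 5 μM (-0.72 to -0.38), and SUZ12 at 0.23 (0.14 to 0.32) and -0.02 (-0.11 to 0.07). The difference between doses was -0.68 for EZH1, with a counting interval of -0.86 to -0.54 and a library spread of 0.44, and -0.25 for SUZ12, with -0.33 to -0.17 and 0.26. With 1 library per dose these differences were not tested. With a common FPKM sum without mitochondrial and small RNA genes, both genes were below 0 at both doses, EZH1 at -0.14 and -0.91 and SUZ12 at -0.06 and -0.40. With the length trend removed, SUZ12 was above 0 at both doses, at 0.30 and 0.13, and EZH1 kept opposite signs, at 0.22 and -0.37.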

How the results depend on the processing

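No paired analysis was possible because each condition had 1 library, and no library could be left out for the same reason. At a threshold of 1, the higher and lower counts became 2 and 1 at 5 μM, 2 and 0 at 2.5 μM, and 0 and 0 between the doses, from 5 and 3, 4 and 1, and 1 and 2. With a common FPKM sum without mitochondrial and small RNA genes they became 2 and 5 at 5 μM, 2 and 2 at 2.5 μM, and 0 and 6 between the doses; the medians became -0.18 at 5 μM and -0.08 at 2.5 μM, and PHF19 reversed to -0.10 at 5 μM. With a common FPKM sum over all genes, the median became 0.06 at 5 μM and -0.37 between the doses, where 0 genes were higher and 6 lower. With a mean FPKM of at least 5, which leaves out EZH1 and JARID2, 1 gene was lower at 5 μM with a median of 0.33, and 1 was lower between the doses. With a pseudocount of 1, 0 were higher and 1 lower between the doses, and with the length trend removed 1 was lower there; at 2.5 μM that correction kept the count of 4 higher while EZH2 left it and SUZ12 entered it, and between the doses it kept the count of 1 higher while EED left it, at 0.20, and BMI1 entered it, at 0.26. The median between the doses, -0.20 as reported, was -0.06 with a mean FPKM of at least 5, -0.09 with the length trend removed and -0.28 without mitochondrial and small RNA genes, and the median at 5 μM was 0.12 with the length trend removed. The remaining counts stayed within 1.5 times of those reported, and the remaining medians lay between 0.18 and 0.20 at 5 μM, between 0.20 and 0.28 at 2.5 μM and between -0.20 and -0.17 between the doses. The 10 Polycomb genes had at least 389 fragments per library, and MYCN had 12 to 35.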
